A study of Mus musculus with 6 samples.

Results

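The 10 genes described here encode C-type lectin receptors and a relative, measured in mouse bone marrow-derived macrophages: *Clec4e*, *Clec4d*, *Clec4n*, *Clec4a1*, *Clec4a2*, *Clec4a3*, *Clec7a*, *Clec10a*, *Clec12a* and *Clec2d*. They were picked by symbol, with earlier results of these data known, and all 10 were found among the 24972 rows of the deposited gene table. RNA was sequenced in 3 libraries of macrophages from *Lcn10* knockout mice (Lcn10-KO; the gene encodes a lipocalin, a kind of small secreted protein that binds lipophilic molecules) and in 3 libraries from wild-type mice (WT). Bone marrow monocytes of both genotypes were grown in medium with L929 cell supernatant, a source of macrophage colony-stimulating factor, and left untreated. The labels used here give neither the strain, age or sex of the mice nor the cells in which the gene was removed. Nor do they state that replicates are different animals, so the tests rest on the spread over libraries, part of which could be technical.

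C-type lectin receptors carry a carbohydrate-recognition fold on the outer side of the cell membrane, with which myeloid cells sense fungal and mycobacterial sugars, glycolipids and products of dying cells. *Clec7a* (dectin-1) signals through a tyrosine motif in its own tail, whereas *Clec4e* (Mincle), *Clec4d* (MCL) and *Clec4n* (dectin-2) rely on the Fc receptor gamma chain, encoded by *Fcer1g*; both routes lead to the kinase *Syk* and the adaptor *Card9*. *Clec4a2* (DCIR) and *Clec12a* carry inhibitory tyrosine motifs that recruit phosphatases, and *Clec10a* (MGL1) binds galactose-type sugars. *Clec2d* differs in role: it is a surface ligand for inhibitory receptors of natural killer cells.

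The annotation (GENCODE, GRCm38) placed 9 of the 10 genes in a pair of clusters on chromosome 6 and *Clec10a* on chromosome 11 (70156197 to 70170834, plus strand). The first cluster ran from 122921848 to 123289870 and held, in this order, *Clec4a1* (122921848 to 122934619), *Clec4a3* (122952515 to 122969875), *Clec4a2* (123106428 to 123143999), *Clec4n* (123229843 to 123247021), *Clec4d* (123262111 to 123275265) and *Clec4e* (123281789 to 123289870). *Clec4e* is on the minus strand and the others on the plus strand. The second ran from 129180615 to 129472779 and held *Clec2d* (129180615 to 129186534) and *Clec12a* (129342691 to 129365303) on the plus strand and *Clec7a* (129461591 to 129472779) on the minus strand. The annotation types *Clec7a* as a polymorphic pseudogene and the others as protein-coding. RefSeq promoter windows (GRCm38.p6) were matched for 8 of the 10 genes, with a window taken here as the 250 bases before a listed start. *Clec4n* and *Clec10a* were not matched.

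Upstream sequences are shown for *Clec2d*, which had the largest difference between genotypes, for *Clec4a1*, and for the neighbours *Clec4d* and *Clec4e*, whose levels overlapped between genotypes. Capitals mark GAGGAA, a core sequence bound by PU.1, the ETS-family factor that myeloid genes rely on, or its reverse complement. Each is given 5′ to 3′ on the strand of its gene.
*Clec2d*, chr6:129180365-129180614, plus strand: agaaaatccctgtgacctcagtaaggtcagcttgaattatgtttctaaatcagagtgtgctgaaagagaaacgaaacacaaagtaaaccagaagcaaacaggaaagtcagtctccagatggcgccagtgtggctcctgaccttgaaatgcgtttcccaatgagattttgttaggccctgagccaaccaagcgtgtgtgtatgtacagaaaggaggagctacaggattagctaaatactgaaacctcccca
*Clec4a1*, chr6:122921598-122921847, plus strand: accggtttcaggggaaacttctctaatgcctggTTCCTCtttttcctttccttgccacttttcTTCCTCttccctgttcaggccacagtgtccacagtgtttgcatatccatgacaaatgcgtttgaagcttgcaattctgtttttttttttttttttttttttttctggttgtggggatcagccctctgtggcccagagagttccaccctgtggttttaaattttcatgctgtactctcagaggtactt
*Clec4d*, chr6:123261857-123262106, plus strand: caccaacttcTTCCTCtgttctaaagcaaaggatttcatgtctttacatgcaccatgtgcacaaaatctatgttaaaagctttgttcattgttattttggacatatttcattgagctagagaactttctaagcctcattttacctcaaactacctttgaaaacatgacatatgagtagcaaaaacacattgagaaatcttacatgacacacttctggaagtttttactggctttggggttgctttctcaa
*Clec4e*, chr6:123289872-123290121, minus strand: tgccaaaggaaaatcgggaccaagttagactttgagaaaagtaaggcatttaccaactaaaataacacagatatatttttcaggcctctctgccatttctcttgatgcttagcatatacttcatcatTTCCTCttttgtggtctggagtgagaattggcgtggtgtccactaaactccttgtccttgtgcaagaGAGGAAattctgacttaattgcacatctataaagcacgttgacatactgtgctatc

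The window of *Clec4a1* held the hexamer at 2 places, that of *Clec4d* at 1 and that of *Clec4e* at 2, while the *Clec2d* window held none. The 8 genes have 10 windows in all, since *Clec4a3* and *Clec7a* are listed with 2 starts each. GAGGAA in either direction was found in 7 of the 10 windows, which belong to *Clec4a1*, *Clec4a3* (1 of its 2), *Clec4d*, *Clec4e*, *Clec12a* and *Clec7a* (both). The windows of *Clec7a* overlap nearly in full and hold the same copy of the word, so the match was in 6 of the 8 genes. Among all 32851 windows of the same length, 23.3% held it. The C/EBP-type word TTGCNNAA was in 2 of the 10 windows, those of *Clec4e* and *Clec12a*, against 9.56% of all windows. The AP-1 word TGANTCA was in 1, that of *Clec12a*, against 6.75% of all windows. The NR4A word AAAGGTCA was in 0 of the 10 and in 1.34% of all windows. The E-box word CANGTG was in 4 of the 10 and in 39.5% of all windows. Both strands were searched for each word, and matches of different words may overlap. A match is a stretch of letters and does not show that a factor binds there. The windows of *Clec2d* and *Clec4a2* held no GAGGAA in either direction.

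A pair of windows shared a stretch well beyond the others. The best local alignment between the *Clec4a1* window and 1 of the 2 *Clec4a3* windows covered 55 columns, of which 48 were identical (87.3%). Its score was 67, against 23 for the next best pair of genes, *Clec4a2* and *Clec4d*. The other *Clec4a3* window, which ends at the annotated gene start, aligned to *Clec4a1* over 8 columns with a score of 16. The 55-column stretch was at -234 to -182 from the *Clec4a1* start and at -68 to -16 from the later listed *Clec4a3* start. In *Clec4a3* it thus lies inside the annotated gene. The aligned stretches are shown because these neighbours also had similar levels, described below; capitals mark the longest run of letters found in both, 17 in all, which holds the reverse complement of GAGGAA.
*Clec4a1*, chr6:122921614-122921666, plus strand: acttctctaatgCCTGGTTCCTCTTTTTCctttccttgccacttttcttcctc
*Clec4a3*, chr6:122952576-122952628, plus strand: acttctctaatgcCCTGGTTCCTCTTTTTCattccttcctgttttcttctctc

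Values below are normalized read counts, that is, read counts scaled by the authors, with nearly equal library totals. The libraries held about 19300000, 24400000 and 19800000 reads in Lcn10-KO and 18000000, 18000000 and 24800000 in WT, as read from the value of a single read. *Lcn10* itself was listed at 0 in each of the 6 libraries, so it could not check the genotype labels. All 10 macrophage markers were above the filter on low values. Their summed level was 299423 to 314125 in Lcn10-KO and 286629 to 296965 in WT. Most of it was *Lyz2*, with means of 187157 in Lcn10-KO and 174440 in WT. In the test described below, 2 of the markers were higher (*Adgre1* and *Mertk*) and 3 lower (*Cx3cr1*, *Csf1r* and *Cd14*). Of all genes tested, 4.7% were higher and 5.14% lower. WT replicate 1 was the lowest of the 6 libraries for 27.6% of the 12091 genes tested and for 8 of the 10 lectin genes. This share was not worked out for the other libraries. The results for the 10 genes are given with and without WT replicate 1. That library was singled out from these same values, and for genes far lower in it, leaving it out narrows the WT spread.

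*Clec4d*, *Clec12a* and *Clec7a* were the most abundant of the 10 transcripts, and *Clec4e* and *Clec10a* the least. Per kilobase of merged exons, *Clec4d* had a normalized count of 5406 ± 78.2 in Lcn10-KO and 5434 ± 131 in WT (SD, n = 3 each). *Clec12a* came next, with 1849 ± 79.0 per kilobase in Lcn10-KO and 1586 ± 156 in WT. *Clec7a* followed with 1123 ± 40.7 in Lcn10-KO and 913 ± 116 in WT. The order was then *Clec4a2*, *Clec4a1*, *Clec4a3*, *Clec2d* and *Clec4n*, and it was the same in both genotypes. At the low end, *Clec4e* had 88.2 ± 7.31 per kilobase in Lcn10-KO and 81.6 ± 4.59 in WT, and *Clec10a* had 78.2 ± 3.60 in Lcn10-KO and 78.2 ± 18.5 in WT. Neighbours whose ranges over libraries overlapped in both genotypes were *Clec4a1* with *Clec4a3* and *Clec4a3* with *Clec2d*. *Clec2d* with *Clec4n*, and *Clec4e* with *Clec10a*, overlapped in WT and not in Lcn10-KO.

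**Figure D1:**
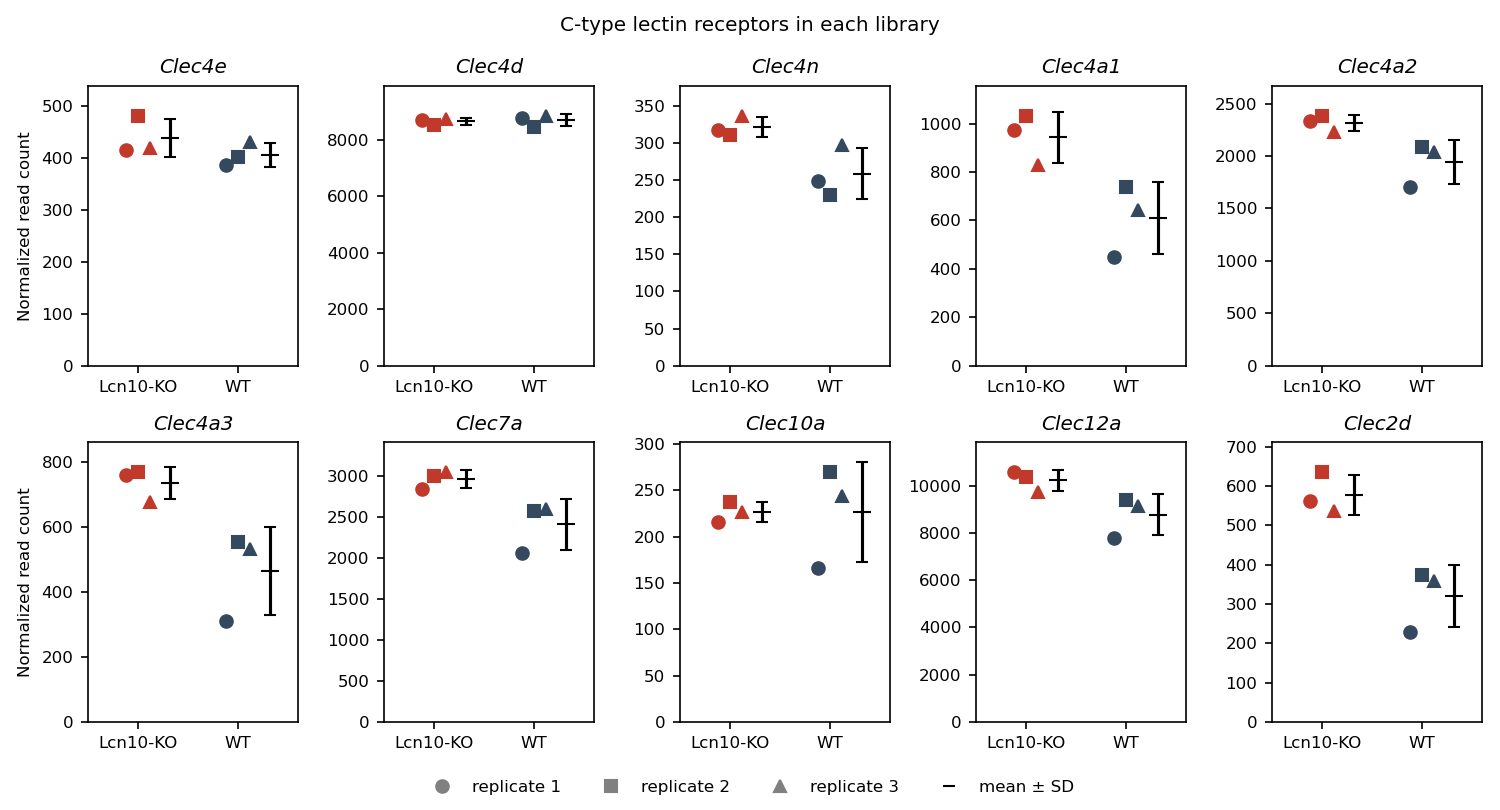
Normalized read counts (y axis, from 0) of the 10 genes in the 3 Lcn10-KO libraries, left, and the 3 WT libraries, right, with the symbol shape giving the replicate number and the bar the mean ± SD (n = 3). In 7 panels every Lcn10-KO library lies above every WT library, and in 8 panels WT replicate 1 (circle) is the lowest of the 6 libraries.

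The macrophages from Lcn10-KO mice had higher levels of *Clec2d* and *Clec4a2* than those from WT mice, and none of the 10 passed the test as lower. These 2 genes passed the test across all genes (limma on log2(value + 1), Benjamini-Hochberg adjusted p under 0.05), as did 1190 of the 12091 genes tested, or 9.84%, of which 568 were higher (4.7%) and 622 lower (5.14%). The groups did not overlap in 7 of the 10 genes, all higher in Lcn10-KO. Among all genes tested, 32.4% had groups that did not overlap, and 15.5% did so with Lcn10-KO higher. The log2 fold change was above 0 for 9 of the 10 genes, against 49.7% of all genes tested. Its median was 0.28 over the 10 genes and -0.0011 over all genes tested. Both calls were lost when any 1 of the 3 Lcn10-KO libraries or WT replicate 3 was left out. Limma without the mean-variance trend called 0 of the 10 and 14 genes in all (0.116%), 6 higher (0.0496%) and 8 lower (0.0662%). In that fit 7 of the 10 had an unadjusted p under 0.05, as did 2713 of all 12091 genes tested. With the trend it was also 7 of the 10, and 3180 of all genes tested. Bulk RNA cannot tell apart more transcript per cell from more cells that carry it.

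*Clec2d*, the ligand of natural killer cell receptors, rose, with the largest log2 fold change of the 10 genes. It had 563, 636 and 536 normalized counts in the Lcn10-KO libraries, against 229, 374 and 358 in the WT libraries. The lowest Lcn10-KO library lay well above the highest WT library, and WT replicate 1 was the lowest of all. The means were 578 ± 51.6 in Lcn10-KO and 320.2 ± 79.4 in WT (SD, n = 3 each), a ratio of 1.81. The fitted log2 fold change was 0.88 ± 0.20 (SE), which is 1.84-fold, with a limma adjusted p of 0.0478. Without WT replicate 1 the log2 fold change was 0.66 ± 0.078 with an adjusted p of 2.31e-05 from limma. Leaving out an Lcn10-KO library gave adjusted p-values of 0.122, 0.149 and 0.111 for replicates 1, 2 and 3, and leaving out WT replicate 3 gave 0.0677. *Clec2d* overlaps no other annotated gene. Of its 31-base words, 11.8% also occur in transcripts of other genes, 5.75% in those of *Clec2i*, so its count may include reads of relatives.

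*Clec4a2* rose by a smaller margin. This receptor binds sugars through its lectin domain and carries an inhibitory motif in its tail. The Lcn10-KO libraries held 2330.1, 2382 and 2228 normalized counts and the WT libraries 1701, 2085 and 2041. The groups did not overlap, and again WT replicate 1 was lowest. Means were 2313 ± 78.6 in Lcn10-KO and 1943 ± 210.0 in WT (SD, n = 3 each), with a log2 fold change of 0.26 ± 0.072 (SE) and a limma adjusted p of 0.0487. Without WT replicate 1 the log2 fold change was 0.16 ± 0.046 (limma adjusted p = 0.0274). The adjusted p was 0.134, 0.178 and 0.111 without Lcn10-KO replicates 1, 2 and 3 and 0.0590 without WT replicate 3, all from limma. *Clec4a2* shared 10.9% of its 31-base words with other genes, among them *Clec4a4* and *Clec4b1*, and overlaps an annotated processed pseudogene, *Gm44132*.

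*Clec4a1* and *Clec4a3*, neighbours of *Clec4a2* and of the same DCIR group, had larger but more scattered differences that did not pass the test in all 6 libraries. *Clec4a1* had 972, 1032 and 828 normalized counts in Lcn10-KO and 449, 739 and 645 in WT. *Clec4a3* had 759, 767 and 676 in Lcn10-KO and 309, 553 and 532 in WT. In both genes the groups did not overlap, and WT replicate 1 lay far below the other WT libraries. The log2 fold change was 0.65 ± 0.21 (SE) for *Clec4a1* (limma adjusted p = 0.129) and 0.70 ± 0.25 for *Clec4a3* (limma adjusted p = 0.161). Without WT replicate 1 the differences were smaller and passed, at 0.44 ± 0.094 for *Clec4a1* (limma adjusted p = 0.0159) and 0.43 ± 0.068 for *Clec4a3* (limma adjusted p = 0.000378). None of the 31-base words of *Clec4a1* and 2.19% of those of *Clec4a3* occur in other genes.

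*Clec12a*, an inhibitory receptor that senses uric acid crystals released by dead cells, did not pass the test. It had 10565, 10369 and 9730.05 normalized counts in Lcn10-KO and 7787, 9405 and 9116 in WT. The groups did not overlap, and the closest libraries of the genotypes lay near each other. The log2 fold change was 0.22 ± 0.067 (SE) with a limma adjusted p of 0.0628, and 0.14 ± 0.042 without WT replicate 1, with a limma adjusted p of 0.0394.

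Of the receptors that activate *Syk*, none passed the test across all genes in all 6 libraries, and the 4 of them differed in pattern. *Clec7a*, the receptor for beta-glucans of fungal walls, had 2841, 2999.6 and 3045 normalized counts in Lcn10-KO and 2055, 2569 and 2598 in WT. The groups did not overlap, with WT replicate 1 lowest. Its log2 fold change was 0.31 ± 0.086 (SE; limma adjusted p = 0.0595), and 0.20 ± 0.044 without WT replicate 1 (limma adjusted p = 0.00746).

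*Clec4n*, which binds fungal mannans, had 317, 311 and 336 normalized counts in Lcn10-KO and 249, 229.9 and 297 in WT. The groups did not overlap, and here WT replicate 2 was the lowest library. The log2 fold change was 0.32 ± 0.098 (SE; limma adjusted p = 0.0568), and 0.30 ± 0.10 without WT replicate 1 (limma adjusted p = 0.0758). The log2 fold change of *Clec4n* was thus nearly the same with and without that library.

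*Clec4e* and *Clec4d*, the neighbouring receptors for mycobacterial cord factor, overlapped between genotypes. *Clec4e* had 415, 480.0 and 419 normalized counts in Lcn10-KO and 385, 401 and 429.9 in WT, with a log2 fold change of 0.11 ± 0.078 (SE; limma adjusted p = 0.407). It was 0.074 ± 0.081 without WT replicate 1 (limma adjusted p = 0.648) and 0.043 ± 0.083 without Lcn10-KO replicate 2 (limma adjusted p = 0.837). *Clec4d* had 8683, 8504 and 8745 in Lcn10-KO and 8780.4, 8450.2 and 8838 in WT. Its log2 fold change was -0.0074 ± 0.039 (SE; limma adjusted p = 0.932), the smallest of the 10, and it had the smallest standard error. Without WT replicate 1 it was 0.00027 (limma adjusted p = 0.998). *Clec4d* overlaps no other annotated gene, and none of its 31-base words occur in another.

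*Clec10a*, the galactose-binding receptor on chromosome 11, also overlapped. It had 216, 237 and 227 normalized counts in Lcn10-KO and 166, 269.6 and 244 in WT. WT replicate 1 was the lowest library, but the other WT libraries were the highest. The log2 fold change was 0.029 ± 0.16 (SE; limma adjusted p = 0.934), and without WT replicate 1 it was -0.18 ± 0.097 (limma adjusted p = 0.303). *Clec10a* shared 14.8% of its 31-base words with other genes, 13.7% with its close relative *Mgl2*.

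**Figure D2:**
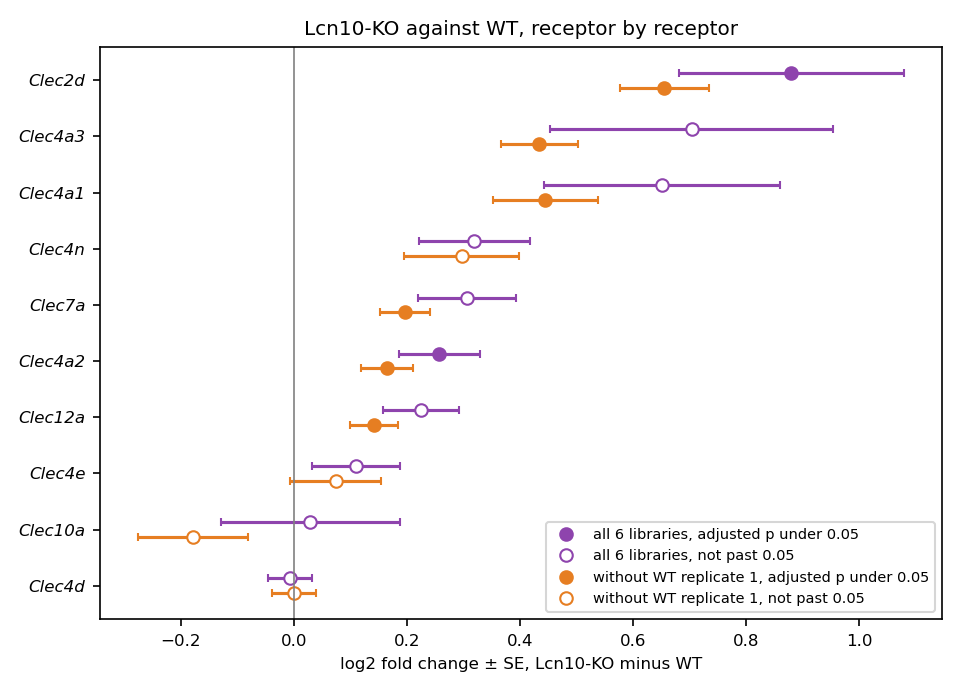
Log2 fold change (x axis, Lcn10-KO minus WT, ± SE) of each gene over all 6 libraries and without WT replicate 1, with filled points for a limma adjusted p under 0.05 over all genes tested. Over all libraries *Clec2d* (0.88) and *Clec4a2* (0.26) are filled, and without WT replicate 1 there are 6 filled points, with smaller log2 fold changes and shorter bars for most genes.

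Without WT replicate 1, 6 of the 10 genes were higher and 0 lower (limma), namely *Clec2d*, *Clec4a1*, *Clec4a2*, *Clec4a3*, *Clec7a* and *Clec12a*. An unadjusted p under 0.05 was reached by 7 of the 10 and by 2700 of all 12091 genes tested. In the same fit 1145 of all genes passed (9.47%), 4.81% of those tested being higher and 4.66% lower. The median log2 fold change of the 10 genes was 0.18 without that library, against 0.28 with it. WT libraries were more scattered than Lcn10-KO libraries in 9 of the 10 genes, *Clec4e* being the exception, and in 62.6% of all genes tested. Leaving out WT replicate 2 gave 4 higher, *Clec12a*, *Clec2d*, *Clec4a2* and *Clec7a*, in a fit that called 13.7% of all genes (6.63% higher and 7.03% lower). Leaving out WT replicate 3 gave 2 higher, *Clec4n* and *Clec7a*, in a fit that called 7.34% of all genes (3.34% higher and 3.99% lower).

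The 9 genes on chromosome 6 were set beside their neighbours. The Clec4 cluster spans 368 kb and lies 5.89 Mb from the second, which spans 292 kb. Within the Clec4 cluster and 500 kb on either side, 8 other genes were tested, of which 1 was higher and 1 lower, with a median log2 fold change of 0.028. Over all genes tested, 4.7% were higher and 5.14% lower, and the median was -0.0011. The higher gene was *Apobec1*, an RNA-editing cytidine deaminase, at 0.26 ± 0.060 (SE; limma adjusted p = 0.0256). The lower gene was *Gdf3*, a TGF-beta family ligand, which fell by 0.88 on the log2 scale with an SE of 0.067 (limma adjusted p = 1.79e-05). The *Gdf3* call held without any 1 library, whereas that of *Apobec1* was lost without Lcn10-KO replicate 2 or 3 (limma adjusted p up to 0.122). The other tested gene inside the cluster was *Clec4b1*, a receptor that couples to the Fc receptor gamma chain. It had 336, 307 and 287 normalized counts in Lcn10-KO and 126, 239.8 and 206 in WT, and did not pass (log2 fold change 0.75 ± 0.23 (SE), limma adjusted p = 0.101). It shares 18.3% of its 31-base words with *Clec4a2*.

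Around the second cluster, 6 other genes were tested, all with a log2 fold change above 0 (49.7% of all genes tested) and a median of 0.71 (-0.0011 over all genes tested). Several were low. Mean normalized counts in Lcn10-KO and WT were 15.1 and 7.95 for *Clec1b* and 15.7 and 9.71 for *BC035044*. They were 26.7 and 14.9 for *2310001H17Rik* and 46.4 and 24.9 for *BC064078*. *Clec1b* and *BC035044* reached the filter of 10 mainly through Lcn10-KO libraries, so the filter itself favoured their sign. Of these 6 genes 2 passed as higher, against 4.7% of all genes tested. They were *BC064078*, at 0.89 ± 0.23 (SE; limma adjusted p = 0.0319), and *Gabarapl1*, an autophagy gene of the Atg8 family, at 0.32 ± 0.055 (limma adjusted p = 0.0056). The *Gabarapl1* call held without any 1 library, and that of *BC064078* was lost without WT replicate 3 or any Lcn10-KO library (limma adjusted p up to 0.132). Between the clusters lie *Cd4* and *Gpr162*, which were higher in Lcn10-KO by 1.499 ± 0.232 and 1.43 ± 0.15 on the log2 scale (SE; limma adjusted p = 0.00496 and 0.000222). Over a list of 39 genes that lie beside the clusters, between them or farther out on chromosome 6, 17 were tested. Of the 17, 4 were higher and 1 lower, against 4.7% and 5.14% of all genes tested, with a median log2 fold change of 0.029. The list was chosen with earlier results of these data known and does not hold every tested gene there. *Ptpn6*, for example, lies between the clusters, did not pass (limma adjusted p = 0.514) and is not on the list. The counts are therefore no call rate for the region. Of these 17 genes, 5 lie between the clusters, where *Cd4* and *Gpr162* were the 2 calls, and the other calls are the cluster neighbours *Apobec1*, *Gdf3* and *Gabarapl1* given above.

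**Figure D3:**
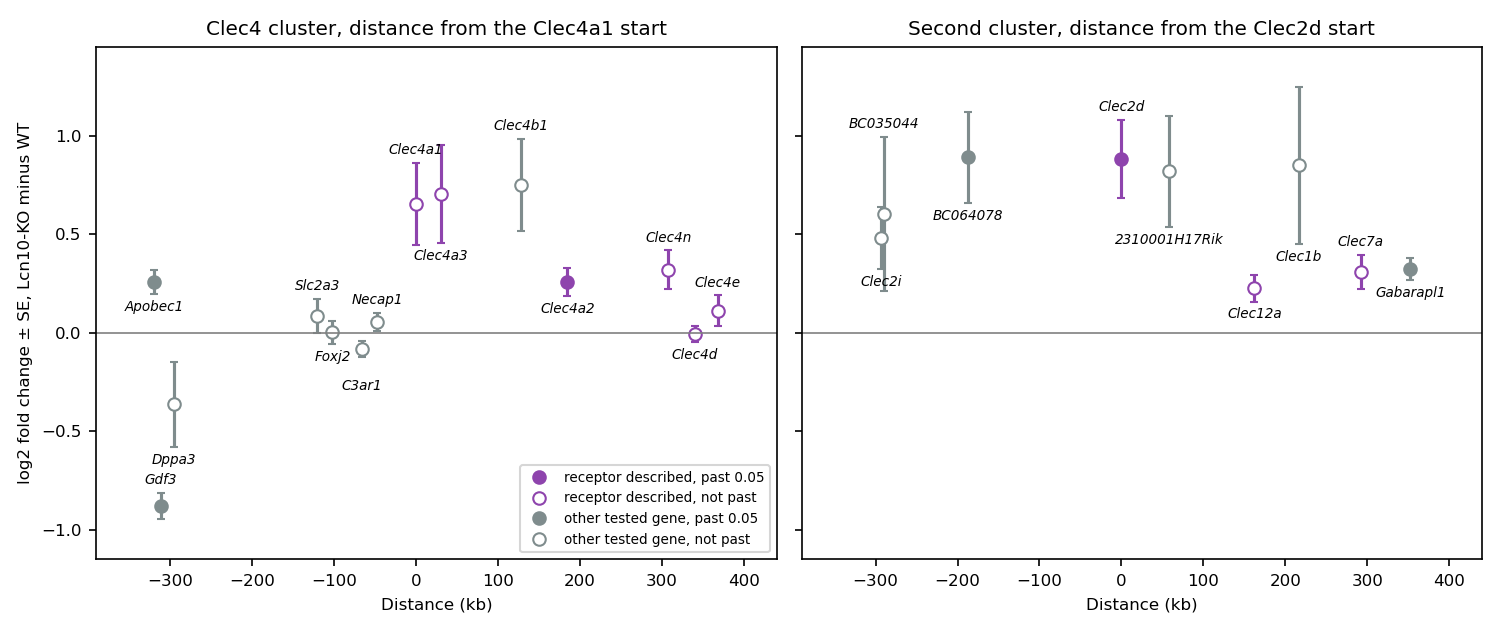
Log2 fold change (y axis, Lcn10-KO minus WT, ± SE) of the tested genes in the Clec4 cluster, left panel, and the second cluster, right panel, against distance in kb from the *Clec4a1* or the *Clec2d* start, with receptors described here in purple, other genes in grey and filled points for a limma adjusted p under 0.05. *Clec4a1*, *Clec4a3* and *Clec4b1* sit at 0.65 to 0.75 and *Clec4d*, farther along the same cluster, at -0.0074.

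Other genes with a C-type lectin domain are set beside all genes tested, of which 4.7% were higher and 5.14% lower. Of 62 such lectin-domain genes, 61 were in the table, 43 were above 0 in any library and 15 were tested. In limma 1 of the 15 was higher and 0 were lower, with a median log2 fold change of 0.048. An unadjusted p under 0.05 was reached by 6 of the 15 and by 3180 of all 12091 genes tested. The gene that passed was *Cd302*, a small endocytic lectin-domain receptor, with 809 ± 24.9 normalized counts in Lcn10-KO and 680.2 ± 46.7 in WT (SD, n = 3 each). Its log2 fold change was 0.25 ± 0.063 (SE; limma adjusted p = 0.0271), a call lost without any 1 Lcn10-KO library (limma adjusted p up to 0.129). Among the 15 tested, the groups did not overlap in 5 genes with Lcn10-KO higher, *Cd302* included, and in 1 gene with Lcn10-KO lower. The share over all genes tested was 32.4% in either direction and 15.5% with Lcn10-KO higher. In the fit without WT replicate 1, 3 of the 15 were higher and 1 lower (limma), against 4.81% and 4.66% of all genes tested.

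The mannose receptor *Mrc1* had 14118, 17184 and 16858 normalized counts in Lcn10-KO and 8644, 11634 and 11941 in WT, with a log2 fold change of 0.59 ± 0.16 (SE; limma adjusted p = 0.0838). *Clec5a*, a receptor coupled to the adaptor DAP12, went the other way, with 573, 567 and 566 in Lcn10-KO and 1076, 671 and 864 in WT. Its log2 fold change was -0.59 ± 0.17 (SE; limma adjusted p = 0.0824). *Clec2i*, the close relative of *Clec2d*, had a log2 fold change of 0.48 ± 0.16 (SE; limma adjusted p = 0.0738). *Mrc1*, *Clec5a* and *Clec2i* were singled out after their values were seen, and none of them passed the test.

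The signalling genes below the receptors are set beside all genes tested, of which 4.7% were higher and 5.14% lower. Of 28 adaptor and kinase genes, all tested, 3 were higher, 1 was lower and 24 did not pass, with a median log2 fold change of 0.064. Those higher were *Vav3*, a guanine nucleotide exchange factor (0.23 ± 0.054, limma adjusted p = 0.0218), *Prkcd*, the protein kinase C isoform that phosphorylates *Card9* (0.18 ± 0.043, limma adjusted p = 0.0259), and *Tyrobp*, the adaptor DAP12 (0.18 ± 0.052, limma adjusted p = 0.0449). *Tyrobp* had 16494 ± 722 normalized counts in Lcn10-KO and 14560 ± 925 in WT (SD, n = 3 each). *Plcg2*, the phospholipase below *Syk*, fell by 0.19 on the log2 scale (SE 0.043, limma adjusted p = 0.0182). The 3 genes at the core of the pathway did not pass: *Fcer1g* at 0.088 ± 0.050 (limma adjusted p = 0.289), *Syk* at 0.14 ± 0.046 (limma adjusted p = 0.0820) and *Card9* at 0.080 ± 0.076 (limma adjusted p = 0.554).

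Of 11 genes listed here for inhibitory signalling, 1 was higher and 1 lower, against 4.7% and 5.14% of all genes tested. The median of the 11 was 0.055. *Cblb*, a ubiquitin ligase that targets *Syk*-coupled receptors, was higher by 0.23 ± 0.053 on the log2 scale (SE; limma adjusted p = 0.0217). *Dok2*, an inhibitory adaptor, fell by 0.22 (SE 0.043, limma adjusted p = 0.0109). *Ptpn6*, the phosphatase SHP-1 recruited by inhibitory motifs, was at -0.057 ± 0.049 (limma adjusted p = 0.514). Of the 39 signalling genes, 3 were higher and 3 lower without WT replicate 1, against 4 higher and 2 lower with all libraries (limma). The shares over all genes tested without that library were 4.81% higher and 4.66% lower. Without Lcn10-KO replicate 3 the 6 signalling calls were all lost, at limma adjusted p-values from 0.0615 for *Dok2* to 0.114 for *Prkcd*. Then limma called 0 of the 39 signalling genes and 173 of all 12091 genes tested (9 and 2541 at an unadjusted p under 0.05). With all libraries and no trend, limma called 0 of the 39 and 14 of all genes tested (10 and 2713 at an unadjusted p under 0.05).

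Genes that macrophages induce after these receptors are engaged showed no common direction in the untreated cells. Of 21 such genes 13 were tested, with 0 higher and 1 lower in limma, against 4.7% and 5.14% of all genes tested. The median log2 fold change of the 13 was -0.0057. An unadjusted p under 0.05 was reached by 7 of the 13 and by 3180 of all 12091 genes tested. *Nlrp3*, the inflammasome sensor, had 1307 ± 49.9 normalized counts in Lcn10-KO and 1615 ± 54.2 in WT (SD, n = 3 each) and fell by 0.31 on the log2 scale (SE 0.049, limma adjusted p = 0.00458). That call held without any 1 library. The growth factor genes *Csf2* and *Csf3* were listed at 0 in every library.

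**Figure D4:**
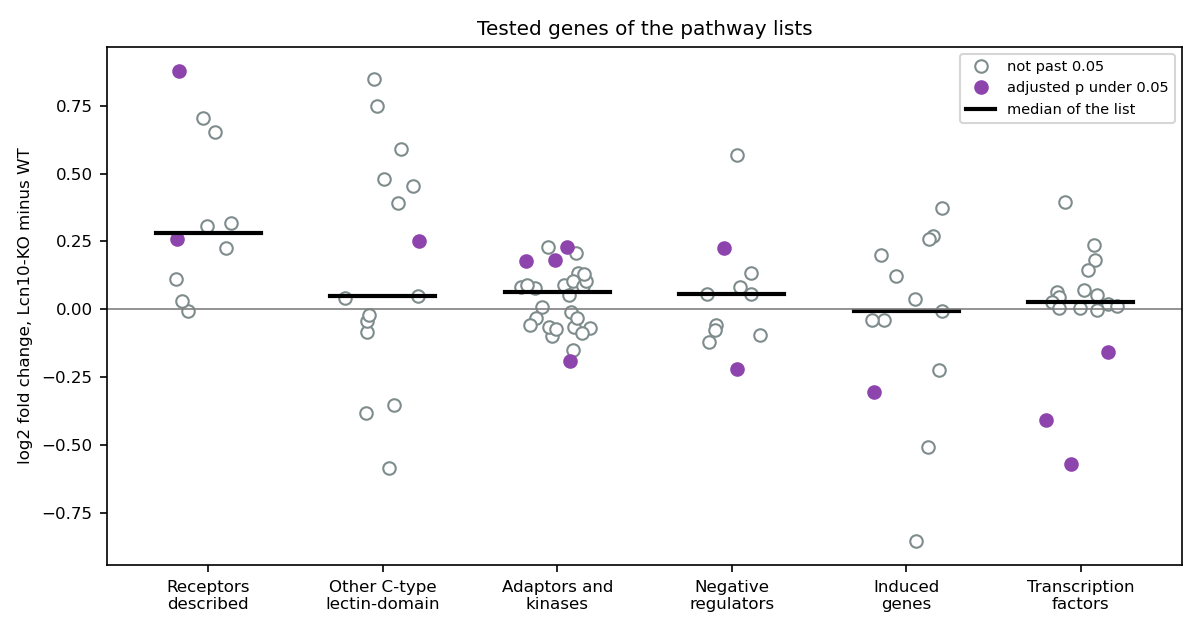
Log2 fold change (y axis, Lcn10-KO minus WT) of each tested gene, by list along the x axis, with filled points for a limma adjusted p under 0.05 and a line at the median of each list. The median is 0.28 for the 10 receptor genes and lies between -0.0057 and 0.064 for the other 5 lists drawn, which hold no cell type markers.

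Several of these receptors are also found on other myeloid cells, so markers of those cells are set beside them. The marker calls below stand against 4.7% of all genes tested being higher and 5.14% lower. Neutrophil and granulocyte precursor markers, 6 of 12 tested, summed to 915 to 1030 normalized counts in Lcn10-KO and 649.5 to 901 in WT; 1 was higher, the growth factor receptor gene *Csf3r* (0.50 ± 0.12 (SE), limma adjusted p = 0.0363), and *Ly6g* was at 0 in every library. Dendritic cell markers, 2 of 10 tested, summed to 1842 to 2361 in Lcn10-KO and 1389 to 2070.4 in WT, most of it *Itgax*, and 0 of them passed in limma (0 at an unadjusted p under 0.05). Monocyte markers, 6 of 7 tested, summed to 4042 to 4150.07 in Lcn10-KO and 4275 to 5646 in WT, with 1 lower. Endothelial markers, 6 of 7 tested, summed to 386 to 841 in Lcn10-KO and 362 to 488 in WT, with *Stab2* and *Egfl7* higher. Eosinophil markers summed to 556 to 702 in Lcn10-KO and 401 to 540.5 in WT, with the granule gene *Epx* at 0 in every library. B cell markers summed to 33.6 to 40.1 in Lcn10-KO and 17.9 to 32.7 in WT, T and NK cell markers to 6.39 to 10.4 in Lcn10-KO and 4.95 to 7.97 in WT, and the defining NK cell gene *Ncr1* was at 0 throughout. The median log2 fold change of the tested markers was 0.21 for neutrophils, 0.29 for dendritic cells, -0.16 for monocytes and 0.87 for endothelial cells, and the 1 tested B cell marker was at 0.41. Mast cell markers summed to 60.9 to 71.8 in Lcn10-KO and 43.3 to 74.9 in WT, and fibroblast markers to 3998 to 4485 in Lcn10-KO and 3039 to 4748 in WT. The part of these cell types in the levels of the lectin genes was not tested.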

How the data were processed

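Macrophage RNA was sequenced by the authors in 3 Lcn10-KO and 3 WT libraries. The deposited values are a signal, read counts that the authors scaled, with a column for each library. The submitters' processing notes name STAR 2.6.1a, Salmon 0.11.2, bcl2fastq, DESeq2 and the build mm10, with no roles given; the strand setting is not given in the sources used here. In low genes 91.2% to 92.7% of values were whole multiples of the value of 1 read within 0.1 reads, too few to recover counts, so no count test was run. The precision is limited by the spread over 3 libraries per genotype, and for low genes also by depth, about 18000000 to 24800000 reads per library.

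The 12091 genes that reached 10 in 3 or more libraries were fitted as log2(value + 1) on genotype with limma 3.58.1 (R 4.3.3), using a trend and robust estimation, and p-values were adjusted by Benjamini-Hochberg over all of them. Differences on this scale, Lcn10-KO minus WT, understate changes of low genes. The script was tested on simulated data. Alternatives were quantile normalization, median-ratio rescaling, no trend, other filters and pseudocounts of 0.5 and 10, a replicate block and leaving out each library. Lists were counted without set tests. The genes and lists were chosen with earlier results of these data known. Named were all 10 genes, *Lcn10*, up to 4 called genes per list by smallest p, and all called lectin-domain and chromosome 6 genes; any others were picked with values in view. Positions and 31-base words came from GENCODE (GRCm38), and 24464 symbols matched. Sequences came from RefSeq promoters (GRCm38.p6), aligned with Biopython 1.88. Genes sharing reads with copies, or overlapping on either strand, are uncertain. Plots used Python 3.11.15 and matplotlib 3.10.9.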

Additional observations from a re-analysis of the deposited data

How the results depend on the processing

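Under quantile normalization, median-ratio rescaling, the stricter filter (50) and pseudocounts of 0.5 and 10, the same 2 receptor genes passed. Of 140 values of single receptor genes under the alternatives, 113 kept direction and side of the threshold, 11 were newly past it, 11 no longer past it and 5 had another sign. The sign changed for *Clec4d* without Lcn10-KO replicate 2 (0.0043), WT replicate 1 (0.00027) or WT replicate 3 (0.0050), and for *Clec10a* without Lcn10-KO replicate 2 (-0.0031) or WT replicate 1 (-0.18). Over all libraries left out in turn, the log2 fold change ranged from -0.027 to 0.0050 for *Clec4d* and from -0.18 to 0.17 for *Clec10a*. The causes were not tested. Limma without the trend called 14 genes in all (2713 at an unadjusted p under 0.05), 0 receptor genes (7), 0 signalling genes (10) and 0 other lectin-domain genes (7). With no filter on low values 1 receptor gene passed, *Clec4a2*. Leaving out 1 library gave 173 to 1652 genes in all, 0 to 6 receptor genes, 0 to 8 signalling genes and 0 to 4 other lectin-domain genes, against 1190, 2, 6 and 1 with all libraries.

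Deviations of samples with the same replicate number had correlations of 0.038, 0.073 and 0.014 for numbers 1, 2 and 3. Those of samples with different numbers ran from -0.063 to 0.026. The labels state no pairing, and these small values do not settle whether the numbers pair the samples. A fit with a replicate block called 1607 genes in all, 5 receptor genes (*Clec12a*, *Clec2d*, *Clec4a2*, *Clec4n* and *Clec7a*) and 3 other lectin-domain genes.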

Other observations

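Among 17 transcription factors that act on these receptor genes or below them, 0 were higher and 3 lower in Lcn10-KO macrophages (limma adjusted p under 0.05). Of all genes tested, 4.7% were higher and 5.14% lower. An unadjusted p under 0.05 was reached by 6 of the 17 and by 3180 of all 12091 genes tested. The median log2 fold change of the 17 was 0.026. *Nr4a1*, an orphan nuclear receptor, had 149, 137 and 117 normalized counts in Lcn10-KO and 182, 223 and 194 in WT, and fell by 0.57 on the log2 scale (SE 0.12, limma adjusted p = 0.0155). *Klf4*, a zinc-finger factor of monocyte differentiation, had 270.5, 251 and 255 in Lcn10-KO and 365, 327 and 340.4 in WT, and fell by 0.41 (SE 0.080, limma adjusted p = 0.0104). Both calls were lost without Lcn10-KO replicate 2 or 3 (limma adjusted p up to 0.0811 for *Nr4a1* and 0.0651 for *Klf4*). *Hif1a*, the oxygen-sensing factor, fell by 0.16 (SE 0.041, limma adjusted p = 0.0327), a call lost without any 1 Lcn10-KO library or WT replicate 3 (limma adjusted p up to 0.152). *Spi1*, which encodes PU.1, overlapped between genotypes, with 5176 ± 180.0 normalized counts in Lcn10-KO and 5081 ± 86.6 in WT (SD, n = 3 each) and a limma adjusted p of 0.743.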
